A study of Mus musculus with 12 samples.

Results

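The genes described here encode the enzymes that build long-chain fatty acids from cytosolic acetyl-CoA and then lengthen and desaturate them: Acly, Acaca, Acacb, Fasn, Elovl6, Elovl5, Scd1, Scd2, Fads1 and Fads2. The 10 genes were chosen by name, with earlier results of these data known. All 10 were on the array, with 16 probes between them, and all 10 passed the filter on dim probes, among 19669 genes tested. The study used NIH3T3, an established line of mouse embryonic fibroblasts, treated for 18 h with 2 µM PP242, with 50 nM rapamycin or with the solvent DMSO, and hybridised RNA from 4 samples of each group to one-colour Agilent arrays. PP242 competes with ATP in the mTOR kinase and so acts on both mTOR complexes, whereas rapamycin inhibits mTOR complex 1 allosterically. Each compound was given at a single dose and the doses differ, so the comparison of PP242 with rapamycin is one of 2 treatments and not of structures at a matched dose. The protocol text gives the PP242 dose in mM where the design text and sample characteristics give µM, which is used here. The samples of a group are described as independent experiments, of 1 line and in serum-containing medium.

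Fatty acid synthesis starts from citrate, which ATP citrate lyase cleaves to acetyl-CoA. Acetyl-CoA carboxylases turn acetyl-CoA into malonyl-CoA, and fatty acid synthase condenses these units into palmitate, which elongases lengthen and desaturases provide with double bonds. Many of these genes are known targets of the transcription factor SREBP1, and mTOR complex 1 is known to promote SREBP activity in fibroblasts and liver. Acetyl-CoA carboxylase 2, the product of Acacb, sits at the mitochondrial surface, where its malonyl-CoA restrains the entry of fatty acids for oxidation.

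The level of a gene is given as log2 of the processed signal of its brightest probe minus the 75th percentile of its array. Levels are not compared between genes, because probes differ in brightness for reasons other than RNA. The 75th percentile that was subtracted was 7538 on rapamycin 3 and 984 to 1832 on the other arrays. On 4 arrays the dim probes were raised: the 75th percentile was 7.05 to 69.5 times the 25th percentile on PP242 1, PP242 4, rapamycin 3 and DMSO 2, and 251 to 406 times on the other 8. Tests were made with limma on those 8 arrays (PP242 2 and 3, rapamycin 1, 2 and 4, and DMSO 1, 3 and 4), with p-values adjusted over all genes tested, and the members' differences between PP242 and DMSO are also given from the fit of all 12 arrays. All 10 fibroblast markers on the list (Col1a1, Vim and others) were well above background on every one of the 8 arrays, with summed levels of 788 to 1040 times the 75th percentile with PP242, 860 to 927 with rapamycin and 939 to 975 with DMSO. Of 6 epithelial markers at most 2 were well above background on any of these arrays, and of 5 macrophage markers on the array at most 4. In RNA from whole cultures, fewer cells of a kind and less RNA per cell cannot be told apart.

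The samples numbered 4 stood apart from the others of their groups in 2 lipid genes, Fabp4 and Lpl, before any comparison of treatments. Fabp4, which encodes a fatty acid carrier abundant in adipocytes, had levels of 2.13, 2.31, 2.42 and -0.21 on PP242 arrays 1 to 4. It had 2.72, 2.75, 1.62 and -2.83 on rapamycin arrays 1 to 4. On DMSO arrays 1 to 4 it had 2.30, 1.97, 2.26 and -3.43. In each group the array numbered 4 was the lowest, and so it was for Lpl, the lipase that releases fatty acids from circulating triglyceride, with 0.59 on PP242 4, -1.89 on rapamycin 4, -1.20 on DMSO 4 and 2.09 to 2.65 on the other 9 arrays. The summed level of the 10 adipocyte markers was 11.4 to 11.7 with PP242, 1.04 to 11.2 with rapamycin and 0.883 to 10.8 with DMSO on the 8 arrays, where array 4 gave the lowest value of the rapamycin and of the DMSO arrays. The sum is of linear levels, and on the fitted arrays not numbered 4 Fabp4 and Lpl make up most of it. It therefore repeats those genes and is no separate evidence from 10 markers. The other 2 markers on the list that passed the filter gave a different picture. Pparg, the nuclear receptor of adipocyte formation, had -3.38 on rapamycin 4 and -3.06 and -3.20 on the other fitted rapamycin arrays. It had -3.77 on DMSO 4 and -3.22 on both other fitted DMSO arrays. On PP242 arrays 1 to 4 it had -0.63, -3.42, -3.61 and 0.44, and on rapamycin 3 it had 2.18. Its high values were thus on PP242 1, PP242 4 and rapamycin 3, which had raised dim probes. Retn, which encodes the adipocyte hormone resistin, was highest on the array numbered 4 in each group, with -1.37 on PP242 4, -1.10 on rapamycin 4 and -2.03 on DMSO 4 against -8.26 to -3.50 on the other 9 arrays, and was well above background on 4 of the 8 arrays. The markers Adipoq, Plin1, Cidec, Cfd, Cebpa and Lep, which define mature adipocytes, did not pass the filter on dim probes.

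**Figure D1:**
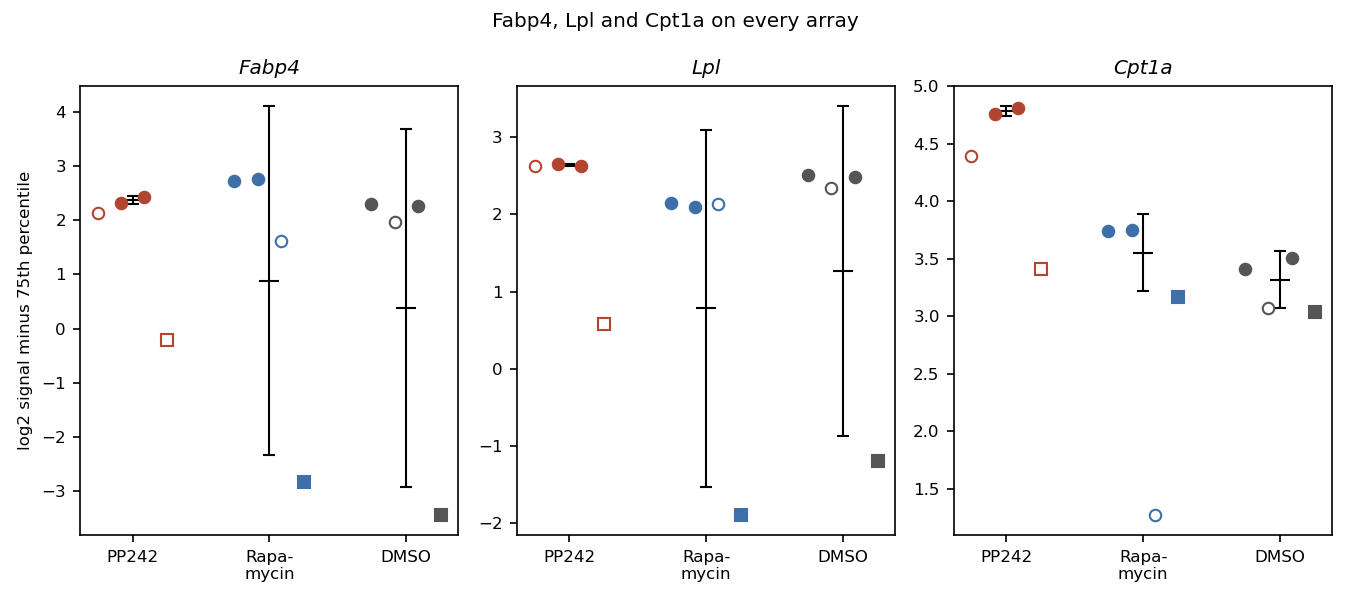
Levels (log2 signal minus the array's 75th percentile, vertical axes) of Fabp4, Lpl and Cpt1a on every array of the PP242, rapamycin and DMSO groups. Filled symbols are the 8 fitted arrays, open symbols the 4 arrays with raised dim probes, squares the arrays numbered 4, and bars the mean and SD of the fitted arrays; Fabp4 lies at -3.43 on DMSO 4 and -2.83 on rapamycin 4, and at 1.62 or more on every array that is not numbered 4.

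The same arrays were low for the 10 synthesis and desaturation genes. On rapamycin 4 all 10 genes had the lowest level of the 3 fitted rapamycin arrays, by a median of -0.51 on the log2 scale, against 41.4% of all genes tested and a median of 0.01. On DMSO 4 all 10 had the lowest level of the 3 fitted DMSO arrays, by a median of -0.39, against 37.5% of all genes and a median of 0.04. On PP242 4, which had raised dim probes, all 10 genes had their lowest PP242 level, and the share of all genes was not counted there. What the sample and the raised signal each contribute to this was not tested. PP242 4 was not among the 8 arrays. For that reason the counts, and the differences of the 10 genes between PP242 and DMSO, are also given for 6 arrays, 2 per group, without rapamycin 4 and DMSO 4. These arrays were left out after their values had been seen, which lowers the spread within groups by construction, and 47.4% of all genes passed the test between PP242 and DMSO on 6 arrays, compared with 26.1% on 8 and 1.04% on 12.

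**Figure D2:**
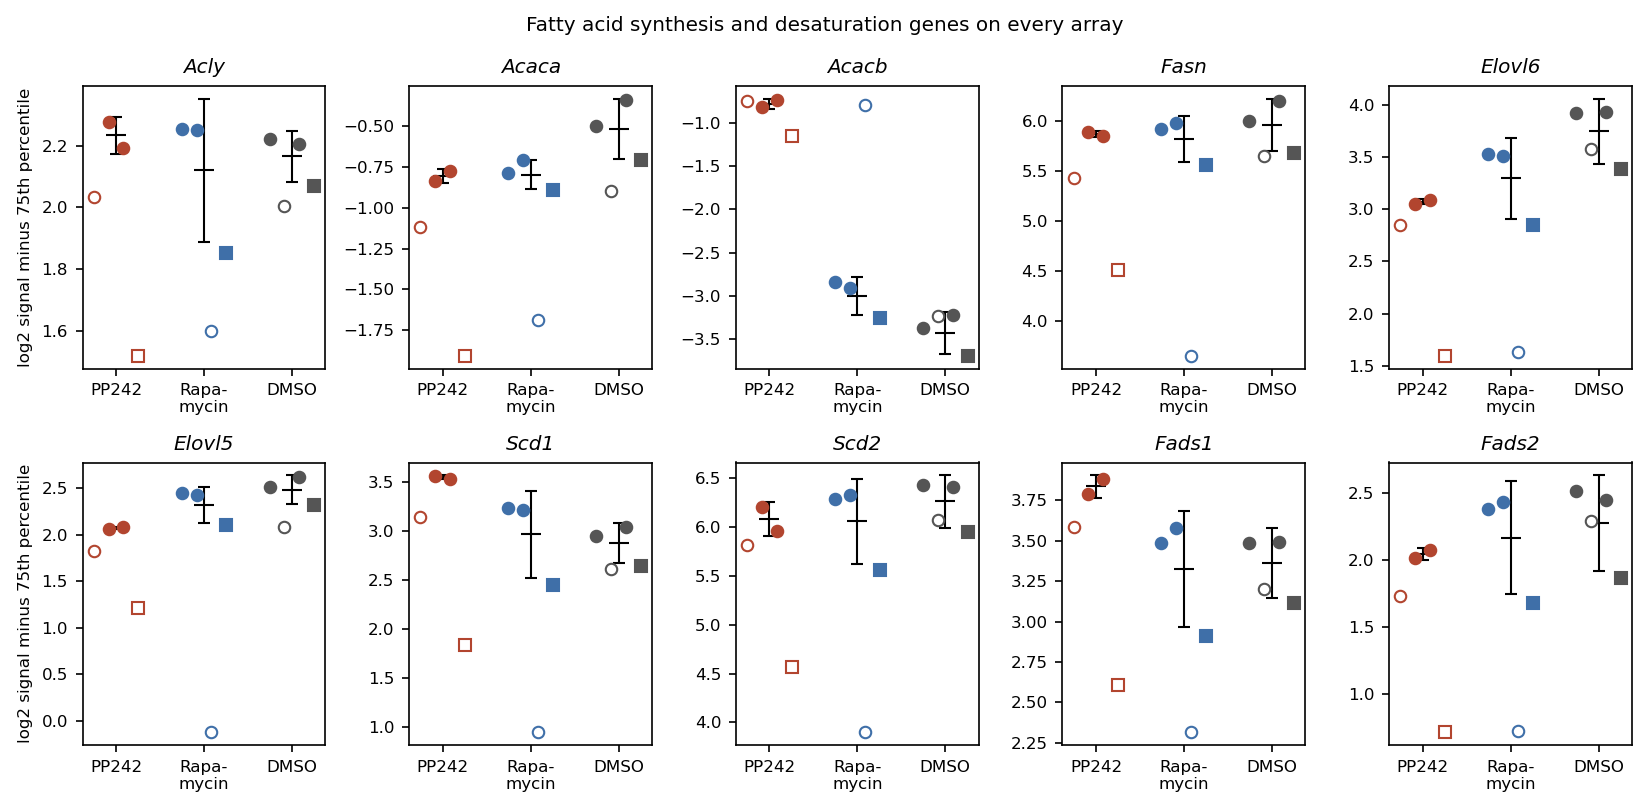
Level of each of the 10 genes (log2 signal minus the array's 75th percentile, vertical axes with a scale for each gene) on every PP242, rapamycin and DMSO array. Filled symbols are the 8 fitted arrays, open symbols the 4 arrays with raised dim probes, squares the arrays numbered 4, and bars the mean and SD of the fitted arrays; Acacb lies between -1.15 and -0.74 on all 4 PP242 arrays and between -3.69 and -3.22 on all 4 DMSO arrays.

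PP242 was compared with DMSO to ask which of these genes depend on the mTOR kinase. On 8 arrays 1 of the 10 genes passed the test, the carboxylase gene Acacb, which rose 6.25-fold, whereas 26.1% of all genes passed, 12.8% upwards and 13.3% downwards. The median log2 difference of the 10 genes was -0.13, against -0.01 for all genes tested, and 4 of the 10 had an unadjusted p under 0.05. On 6 arrays 8 of the 10 genes passed, of which 3 rose (Acacb, Scd1 and Fads1) and 5 fell (Elovl6, Elovl5, Fads2, Acaca and Scd2), against 25.1% and 22.3% of all genes. On 12 arrays Acacb alone passed.

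The starting sequences of the genes that the comparison turns on are shown first. RefSeq promoter windows were found for 7 of the 10 genes, and the 250 bases before the annotated start are printed for Acacb, which rose, for Elovl6 and Elovl5, whose PP242 levels lay below all fitted DMSO levels, and for Fasn, whose levels overlapped between the groups. The build is GRCm38.p6, and the windows lie at chr5:114165268-114165517 on the plus strand, chr3:129532136-129532385 on the plus strand, chr9:77917115-77917364 on the plus strand and chr11:120824548-120824797 on the minus strand, each written 5′ to 3′ on the strand of its gene. Capitals mark matches to the SREBP site TCACNCCAC, the E-box CACGTG or the NF-Y box CCAAT on either strand.
Acacb: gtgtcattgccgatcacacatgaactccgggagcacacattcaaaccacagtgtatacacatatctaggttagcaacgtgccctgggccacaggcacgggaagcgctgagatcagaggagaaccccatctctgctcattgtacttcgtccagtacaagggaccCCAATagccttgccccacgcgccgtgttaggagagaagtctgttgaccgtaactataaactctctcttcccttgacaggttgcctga
Elovl6: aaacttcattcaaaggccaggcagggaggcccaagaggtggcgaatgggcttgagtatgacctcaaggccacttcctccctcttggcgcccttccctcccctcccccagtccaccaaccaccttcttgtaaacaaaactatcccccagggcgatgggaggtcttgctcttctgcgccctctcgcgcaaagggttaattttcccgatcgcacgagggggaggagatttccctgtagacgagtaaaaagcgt
Elovl5: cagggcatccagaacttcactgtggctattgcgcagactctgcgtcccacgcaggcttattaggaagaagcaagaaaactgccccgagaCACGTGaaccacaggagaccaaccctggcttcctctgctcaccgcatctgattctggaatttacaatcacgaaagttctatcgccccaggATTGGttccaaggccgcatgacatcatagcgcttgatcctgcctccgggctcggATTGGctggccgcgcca
Fasn: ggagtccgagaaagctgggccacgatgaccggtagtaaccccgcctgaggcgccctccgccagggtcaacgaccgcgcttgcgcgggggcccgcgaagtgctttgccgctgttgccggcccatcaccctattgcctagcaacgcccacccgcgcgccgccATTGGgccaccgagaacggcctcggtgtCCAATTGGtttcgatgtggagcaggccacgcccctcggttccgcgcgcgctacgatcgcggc

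No window of the 7 genes, counted with 50 bases after the start, held the SREBP site, which 1.24% of 32851 mouse promoters of this length hold. The NF-Y box, found in 37.4% of promoters, occurred 1 time in Acacb at -87 to -83 from the start and 2 times in Elovl5. It occurred 1 time in Acly, at 37 to 41 after the start. It occurred 3 times in Fasn, where 2 of the matches overlap on opposite strands (-62 to -58 and -59 to -55). Elovl5 also held the E-box, present in 7.15% of promoters, at -161 to -156. The Sp1 box GGGCGG, in 35.7% of promoters, occurred 4 times in Acly and 1 time in Fads2, whose windows are not printed. Elovl6 and Acaca held none of these letters. The Acacb, Acaca and Fasn windows lie inside the annotated span of their genes (Acacb chr5:114146321-114250761, Acaca chr11:84129635-84401651 and Fasn chr11:120805958-120825166), so they belong to a start downstream of the first one. The matches are letters in these windows only. Scd1, Scd2 and Fads1 were not analysed here for sequence.

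Acly encodes ATP citrate lyase, which supplies the acetyl-CoA. Its level was 2.27 and 2.19 on PP242 arrays 2 and 3, against 2.22, 2.21 and 2.07 on DMSO arrays 1, 3 and 4, and these values overlap. The unfitted arrays had 2.03 and 1.52 (PP242 1 and 4) and 2.01 (DMSO 2). The difference was 0.07 ± 0.15 on the log2 scale (SE; limma adjusted p = 0.778), with a 95% interval of -0.29 to 0.42. It was 0.02 ± 0.06 on 6 arrays (limma adjusted p = 0.804) and had the opposite sign on 12, with -0.12 ± 0.25 (limma adjusted p = 0.863), so no set of arrays placed Acly past the threshold.

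Acacb encodes the carboxylase of the mitochondrial surface. Its level was -0.75, -0.82, -0.74 and -1.15 on PP242 arrays 1 to 4. It was -3.37, -3.24, -3.22 and -3.69 on DMSO arrays 1 to 4. Every PP242 array lay above every DMSO array, including the arrays with raised dim probes and those numbered 4, and such separation over 12 arrays was seen upwards for 11.7% of all genes. As processed intensity, before scaling, the signal was 582 to 948 on the 4 PP242 arrays and 91.3 to 131 on the 4 DMSO arrays, and the probe was well above background on all 12 arrays. PP242 2 and 3, which were fitted, had 582 and 948, and PP242 1 and 4, with raised dim probes, had 789 and 823. On the 4 arrays with raised dim probes 77.9% to 97.9% of all probes were well above background, against 55.7% to 60.4% on the 8 fitted arrays. Being well above background therefore says little about Acacb on PP242 1 and 4. The part of the raised signal in the Acacb values of PP242 1 and 4 was not tested. The difference was 2.64 ± 0.19 on the log2 scale on 8 arrays (SE, n = 2 and 3; limma adjusted p = 0.000482), 2.51 ± 0.08 on 6 arrays (limma adjusted p = 0.000642) and 2.51 ± 0.46 on 12 (limma adjusted p = 0.0315). Within slides 1, 2 and 3, which each held all groups, it was 2.71, 2.29 and 2.47 over the 12 arrays. With slide as a block it was 2.59 ± 0.25 on 8 arrays (limma adjusted p = 0.0192) and 2.50 ± 0.50 on 12, where it did not pass (limma adjusted p = 0.112).

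The array holds a second Acacb probe, which did not show this difference. It was well above background on 3 of the 8 arrays and 7 of the 12, and its difference was 0.38 ± 0.61 (limma adjusted p = 0.690). Its processed intensity was 6.80 and 14.3 on PP242 2 and 3, and 1660 on PP242 4, where dim probes were raised. The rise therefore rests on 1 of 2 probes, and the mean of both gave 1.51 ± 0.32 (limma adjusted p = 0.0175).

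Acaca encodes the cytosolic carboxylase, which provides malonyl-CoA for synthesis. Its level was -0.84 and -0.78 on PP242 arrays 2 and 3, against -0.50, -0.34 and -0.71 on DMSO arrays 1, 3 and 4. The 2 PP242 arrays lay below the 3 DMSO arrays, as did those of 29.3% of all genes. PP242 1 and 4, which were not fitted, had -1.12 and -1.91, and DMSO 2 had -0.89. The difference was -0.29 ± 0.13 (limma adjusted p = 0.156) on 8 arrays. On 6 arrays Acaca fell by 0.39 ± 0.08 on the log2 scale (limma adjusted p = 0.0192), while Acacb rose. On 12 arrays the difference was -0.55 ± 0.32 and did not pass (limma adjusted p = 0.553). The 3 dimmer Acaca probes gave -0.51, -0.38 and 0.07, and none passed, so the probes do not share a sign.

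Fasn encodes fatty acid synthase, which makes palmitate. Its level was 5.89 and 5.85 on PP242 arrays 2 and 3, against 5.995, 6.19 and 5.68 on DMSO arrays 1, 3 and 4. The PP242 values lay inside the DMSO range. On the arrays with raised dim probes Fasn had 5.43 and 4.51 (PP242 1 and 4) and 5.65 (DMSO 2). The difference was -0.09 ± 0.19 (limma adjusted p = 0.772), with a 95% interval of -0.55 to 0.37, and its second probe gave -0.01 ± 0.20. On 6 arrays it was -0.23 ± 0.09 (limma adjusted p = 0.0981) and on 12 arrays -0.46 ± 0.51 (limma adjusted p = 0.757), and neither passed.

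Elovl6 encodes the elongase that lengthens palmitate to stearate. Its level was 2.85, 3.05, 3.09 and 1.60 on PP242 arrays 1 to 4. It was 3.92, 3.58, 3.93 and 3.39 on DMSO arrays 1 to 4. All 4 PP242 arrays lay below all 4 DMSO arrays, as for 12.1% of all genes, and Elovl6 was the only other gene of the 10 whose groups were separate over 12 arrays. The difference was -0.68 ± 0.26 on 8 arrays (limma adjusted p = 0.112) and -1.06 ± 0.46 on 12 (limma adjusted p = 0.379), neither of which passed. On 6 arrays Elovl6 fell by 0.86 ± 0.05 on the log2 scale, 1.81-fold (limma adjusted p = 0.000992). Within slides 1, 2 and 3 the difference over 12 arrays was -0.60, -1.23 and -1.08. PP242 1 and 4, which had raised dim probes, enter the values over 12 arrays. On PP242 4 all 10 genes had their lowest PP242 level, among them Fasn (4.51) and Acly (1.52), whose fitted groups overlapped. The arrays numbered 4 were also the lowest fitted arrays for all 10 genes in the rapamycin and DMSO groups. The part of the array in the Elovl6 values of PP242 1 and 4 was not tested.

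Elovl5 encodes an elongase of polyunsaturated fatty acids. Its level was 2.06 and 2.08 on PP242 arrays 2 and 3, against 2.51, 2.62 and 2.32 on DMSO arrays 1, 3 and 4. The PP242 arrays lay below the DMSO arrays among these 5, as did those of 29.3% of all genes. Of the arrays not fitted, PP242 1 and 4 had 1.83 and 1.22, and DMSO 2 had 2.08, within the range of the fitted PP242 arrays. The difference was -0.41 ± 0.15 (limma adjusted p = 0.0879) and the second probe gave -0.43 ± 0.14 (limma adjusted p = 0.0605). On 6 arrays Elovl5 fell by 0.49 ± 0.06 on the log2 scale (limma adjusted p = 0.00528). With 12 arrays the difference was -0.59 ± 0.51 (limma adjusted p = 0.714).

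Scd1 and Scd2 encode stearoyl-CoA desaturases, which place the first double bond in stearate and palmitate. Scd1 had 3.56 and 3.54 on PP242 arrays 2 and 3, against 2.95, 3.04 and 2.65 on DMSO arrays 1, 3 and 4. All the PP242 values were above the DMSO values, as for 29.6% of all genes. The difference was 0.67 ± 0.26 on 8 arrays (limma adjusted p = 0.111), and on 6 arrays Scd1 rose by 0.56 ± 0.06 (limma adjusted p = 0.00327). PP242 1 had 3.15 and DMSO 2 had 2.61. PP242 4, with raised dim probes, had 1.84, below every DMSO array, and the difference over 12 arrays was 0.21 ± 0.53 (limma adjusted p = 0.890). Scd2 had 6.20 and 5.96 on PP242 arrays 2 and 3, against 6.43, 6.40 and 5.95 on DMSO arrays 1, 3 and 4. These ranges overlap, the unfitted arrays had 5.82 and 4.57 (PP242 1 and 4) and 6.07 (DMSO 2), and the difference was -0.18 ± 0.28 (limma adjusted p = 0.682). On 6 arrays Scd2 fell by 0.33 ± 0.10 on the log2 scale (limma adjusted p = 0.0491), so the 2 desaturase genes had opposite signs there. On 12 arrays the Scd2 difference was -0.58 ± 0.53 (limma adjusted p = 0.727). The difference between the 2 genes was not tested.

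Fads1 and Fads2 encode the front-end desaturases of polyunsaturated fatty acid synthesis, known as delta-5 and delta-6 desaturase. Fads1 had 3.79 and 3.88 on PP242 arrays 2 and 3, against 3.48, 3.49 and 3.11 on DMSO arrays 1, 3 and 4. The PP242 values lay above the DMSO values, as for 29.6% of all genes, while PP242 1 and 4, not fitted, had 3.59 and 2.61, and DMSO 2 had 3.20. The difference was 0.47 ± 0.23 (limma adjusted p = 0.187). On 6 arrays Fads1 rose by 0.35 ± 0.07 (limma adjusted p = 0.0153), and on 12 its difference was 0.14 ± 0.36 (limma adjusted p = 0.889). Fads2, its neighbour on chromosome 19, had 2.01 and 2.08 on the same PP242 arrays, against 2.51, 2.45 and 1.87 on the DMSO arrays. Its groups overlapped through DMSO 4, with 1.73 and 0.72 on PP242 1 and 4 and 2.29 on DMSO 2, and the difference was -0.23 ± 0.29 (limma adjusted p = 0.612). On 6 arrays Fads2 fell by 0.43 ± 0.06 on the log2 scale (limma adjusted p = 0.00639), and on 12 its difference was -0.64 ± 0.43 (limma adjusted p = 0.619).

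**Figure D3:**
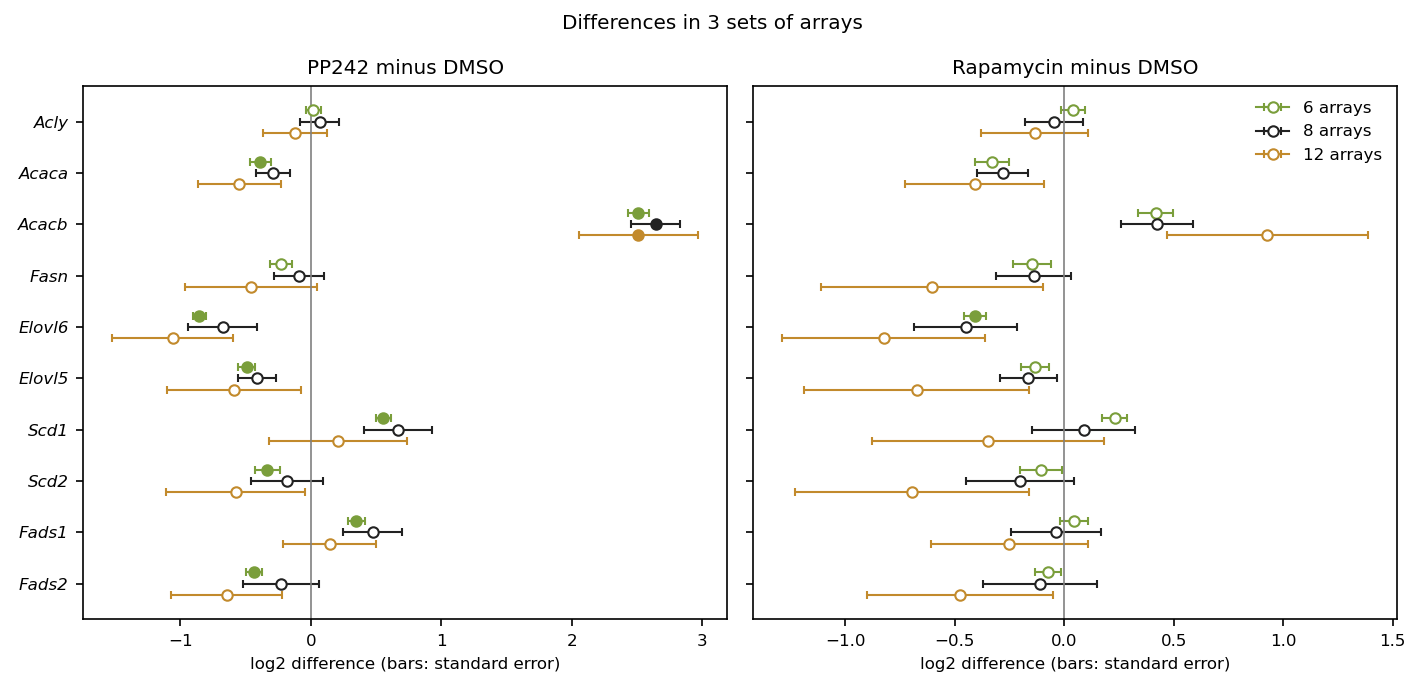
Log2 difference of each of the 10 genes (horizontal axes; bars are standard errors) for PP242 minus DMSO on the left and rapamycin minus DMSO on the right, on 6, 8 and 12 arrays. Filled symbols passed limma's adjusted p of 0.05; Acacb is past the threshold in all 3 sets for PP242 (2.51, 2.64 and 2.51), and Elovl6 on 6 arrays is the filled symbol for rapamycin (-0.41).

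Rapamycin was compared with DMSO to ask what allosteric inhibition of mTOR complex 1 changes. On 8 arrays 0 of the 10 genes passed limma's test and 2 (Acaca and Acacb) had an unadjusted p under 0.05, in a comparison in which 0.0559% of all genes passed. The median of the 10 genes was -0.12, against -0.02 for all genes. On 6 arrays 1 of the 10 passed, Elovl6, which fell by 0.41 ± 0.05 on the log2 scale (limma adjusted p = 0.0310), where 9.27% of all genes passed, 3.3% downwards. On 12 arrays 0 of the 10 passed, as did 0% of all genes, of which 570 had an unadjusted p under 0.05.

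Elovl6 had 3.53, 3.51, 1.63 and 2.85 on rapamycin arrays 1 to 4, against 3.92, 3.58, 3.93 and 3.39 on DMSO arrays 1 to 4. Among the 8 fitted arrays the groups overlapped, since rapamycin 1 and 2 lay above DMSO 4, and the difference was -0.45 ± 0.24 (limma adjusted p = 0.483). Acacb had -2.84, -2.91, -0.80 and -3.26 on rapamycin arrays 1 to 4, and the levels of its fitted arrays overlapped with DMSO. The value of -0.80 came from rapamycin 3, whose dim probes were raised most, and its processed intensity there was 4335, against 154 to 183 on the other rapamycin arrays. On 8 arrays, which leave rapamycin 3 out, the Acacb difference was 0.42 ± 0.17 (limma adjusted p = 0.355), on 6 it was 0.42 ± 0.08 (limma adjusted p = 0.0517), and over 12 arrays it was 0.93 ± 0.46 (limma adjusted p = 0.739). Acaca had -0.79, -0.71 and -0.89 on the fitted rapamycin arrays, all below the fitted DMSO arrays, as for 10.2% of all genes, with a difference of -0.28 ± 0.12 (limma adjusted p = 0.377) on 8 arrays and -0.33 ± 0.08 (limma adjusted p = 0.0767) on 6. Fasn had 5.92, 5.98 and 5.56 on rapamycin arrays 1, 2 and 4, and Elovl5 had 2.44, 2.42 and 2.10, so that both overlapped the fitted DMSO arrays. On rapamycin 3, which was not fitted, they had 3.66 and -0.12, and Scd1 had 0.95. The 75th percentile subtracted there was 7538, against 1162 to 1594 on the other rapamycin arrays. Processed intensities on rapamycin 3 were 95150 for Fasn, 6930 for Elovl5, 14520 for Scd1 and 23300 for Elovl6. On the other rapamycin arrays they were 73290 to 79150, 6232 to 7121, 8727 to 12340 and 11500 to 15100. The 7 genes other than Elovl6, Acacb and Acaca had differences between -0.20 for Scd2 and 0.09 for Scd1, with limma adjusted p from 0.677 to 0.970.

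PP242 was then compared with rapamycin. On 8 arrays Acacb alone of the 10 genes passed, with a rise of 2.22 ± 0.19 on the log2 scale (limma adjusted p = 0.00144), where 14% of all genes passed, 6.67% upwards. The second Acacb probe had the opposite sign, with -0.60 ± 0.61 (limma adjusted p = 0.571), and the mean of both probes gave 0.81 ± 0.32, which did not pass (limma adjusted p = 0.160). On 12 arrays, in which rapamycin 3 enters, the Acacb difference was 1.58 ± 0.46 and did not pass (limma adjusted p = 0.586), and 0% of all genes did. On 6 arrays 6 of the 10 passed, against 34.3% of all genes: Acacb, Scd1 and Fads1 were higher with PP242 (18.1% of all genes were), and Elovl5, Elovl6 and Fads2 were lower (16.1%). Scd1 had 3.24, 3.21 and 2.45 on rapamycin arrays 1, 2 and 4, all below its PP242 levels, as for 28% of all genes, with a difference of 0.58 ± 0.26 on 8 arrays (limma adjusted p = 0.2005) and 0.33 ± 0.06 on 6 (limma adjusted p = 0.0194). Elovl6 differed by -0.22 ± 0.26 on 8 arrays (95% interval -0.86 to 0.41) and fell by 0.45 ± 0.05 on 6 (limma adjusted p = 0.00649). For Acly, Fasn, Scd2 and Acaca no set of arrays showed a difference past the threshold, and the 95% intervals on 8 arrays were -0.24 to 0.47, -0.41 to 0.51, -0.64 to 0.69 and -0.32 to 0.30. PP242 and rapamycin share the DMSO arrays as their baseline.

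The order of the levels on the 8 fitted arrays is given as a description. The PP242 levels of Acacb, Scd1 and Fads1 lay above all DMSO levels, as for 29.6% of all genes, and above all rapamycin levels, as for 28%, while the rapamycin and DMSO levels overlapped with each other. Of these 3 genes Acacb alone passed on 8 arrays, and on PP242 4, which was not fitted, Scd1 and Fads1 lay below every DMSO array. On that array, whose dim probes were raised, Fasn (4.51), Scd2 (4.57) and Acly (1.52) lay below every DMSO array too. The PP242 levels of Elovl5 lay below all DMSO levels on the 8 arrays, as for 29.3% of all genes. Its highest fitted PP242 level was 2.08 and its lowest fitted rapamycin level 2.10. Its difference from rapamycin did not pass (limma adjusted p = 0.331). Over all 12 arrays Elovl5 was lowest on rapamycin 3, where its processed intensity (6930) lay within the range of the fitted rapamycin arrays. Its mean level over 12 arrays was 1.80 with PP242, 1.71 with rapamycin and 2.38 with DMSO. The PP242 levels of Elovl6 lay below those of DMSO, also as for 29.3% of all genes, and its rapamycin levels overlapped both. The DMSO levels of Acaca lay above those of PP242 and rapamycin on 8 arrays, whereas DMSO 2, which was not fitted, lay among them. For Acly, Fasn, Scd2 and Fads2 all 3 groups overlapped on the 8 arrays.

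The genes around the pathway were read from 7 lists with 73 genes, of which 63 passed the filter on dim probes. For PP242 against DMSO 11 rose and 4 fell on 8 arrays, against 12.8% and 13.3% of all genes, with a median difference of 0.07. With slide as a block 0 of the 63 passed limma's test, and on 12 arrays 0 passed. On 6 arrays 19 rose and 15 fell, among them all 15 that passed on 8 arrays, each in the same direction (limma adjusted p of 0.000724 to 0.0314). On 12 arrays those 15 had the same sign, with limma adjusted p from 0.249 to 0.919. For rapamycin against DMSO 0 passed limma's test on 8 arrays, 8 having an unadjusted p under 0.05, and for PP242 against rapamycin 4 rose and 2 fell.

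Among 13 measured genes of transcriptional control, 2 rose and 2 fell on 8 arrays, against 12.8% and 13.3% of all genes. Mbtps2, a protease that releases SREBP from the membrane, rose by 0.81 (limma adjusted p = 0.0126) and Nr1h2, which encodes the nuclear receptor LXR beta, by 0.34 (limma adjusted p = 0.0355). Nfyc, a subunit of NF-Y, fell by 0.67 on the log2 scale (limma adjusted p = 0.00600) and Mlx, the partner of the carbohydrate-responsive factor ChREBP, fell by 0.38 (limma adjusted p = 0.0322). Srebf1, which encodes SREBP1, had levels of 3.38 and 3.40 with PP242 and 3.23, 3.21 and 3.41 with DMSO, and a difference of 0.11 (limma adjusted p = 0.476). Srebf2 differed by 0.23 (limma adjusted p = 0.293), Insig1, which retains SREBP in the endoplasmic reticulum, by 0.61 (limma adjusted p = 0.327), and the SREBP escort Scap by 0.27 (limma adjusted p = 0.218).

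Of 10 measured genes that supply acetyl-CoA, malonyl-CoA and NADPH or regulate the carboxylases, 1 rose, against 12.8% of all genes. Mlycd, which encodes malonyl-CoA decarboxylase, the enzyme that removes malonyl-CoA, had 0.64, 1.01, 1.01 and 0.05 on PP242 arrays 1 to 4, against -0.12, -0.29, -0.23 and -0.97 on DMSO arrays 1 to 4. The PP242 arrays lay above all DMSO arrays, as for 11.7% of all genes over 12 arrays. Mlycd rose by 1.46 ± 0.29 on 8 arrays (limma adjusted p = 0.0130) and 1.19 ± 0.06 on 6 (limma adjusted p = 0.000831). Mid1ip1, which promotes polymerisation of acetyl-CoA carboxylase, differed by -0.01 (limma adjusted p = 0.986), and Pdha1, a subunit of pyruvate dehydrogenase, by 0.36 (limma adjusted p = 0.0987).

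Fatty acid oxidation held 4 genes that rose and 0 that fell among 11 measured on 8 arrays, against 12.8% and 13.3% of all genes. On 12 arrays, and on 8 with slide as a block, 0 of them passed limma's test. Cpt1a, the carnitine palmitoyltransferase that admits fatty acids to mitochondria and is inhibited by malonyl-CoA, had 4.39, 4.76, 4.81 and 3.41 on PP242 arrays 1 to 4, against 3.41, 3.07, 3.51 and 3.04 on DMSO arrays 1 to 4. PP242 4 lay within the DMSO range, and Cpt1a rose by 1.47 ± 0.23 on 8 arrays (limma adjusted p = 0.00552) and 1.33 ± 0.06 on 6 (limma adjusted p = 0.000724). Acadm, the medium-chain acyl-CoA dehydrogenase, rose by 0.67 (limma adjusted p = 0.00355), Slc25a20, the carnitine carrier, by 0.75 (limma adjusted p = 0.00935) and Cpt2 by 0.37 (limma adjusted p = 0.0304). Acadvl, the very-long-chain dehydrogenase, differed by 0.29 (limma adjusted p = 0.172). Cpt1a and Acadm also rose relative to rapamycin, by 1.23 (limma adjusted p = 0.0177) and 0.79 (limma adjusted p = 0.00388).

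Mitochondrial fatty acid synthesis is a separate pathway that makes the precursor of lipoic acid. Of its 6 measured genes 3 rose and 0 fell on 8 arrays, against 12.8% and 13.3% of all genes, and 0 passed on 12 arrays. Cbr4, a subunit of its ketoacyl reductase, rose by 0.93 (limma adjusted p = 0.00388), Mcat, the malonyl transferase, by 0.46 (limma adjusted p = 0.0464) and Oxsm, the ketoacyl synthase, by 0.36 (limma adjusted p = 0.0494). Ndufab1, the acyl carrier protein, differed by -0.15 (limma adjusted p = 0.409).

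The remaining 3 lists held 1 gene each that passed, where 26.1% of all genes did. Of 8 measured elongation genes other than Elovl5 and Elovl6, Hacd1, a hydroxyacyl-CoA dehydratase, fell by 0.65 on the log2 scale (limma adjusted p = 0.00949), and Elovl1, the brightest of the others, differed by -0.26 (limma adjusted p = 0.346). Of 6 other desaturases and electron donors, Cyb5r3, the cytochrome b5 reductase, rose by 0.33 (limma adjusted p = 0.0494), and Degs1, the ceramide desaturase, differed by -0.21 (limma adjusted p = 0.697). Of 9 genes of fatty acid activation, Acsl5, an acyl-CoA synthetase, fell by 0.58 on the log2 scale (limma adjusted p = 0.00795), and Dbi, the acyl-CoA binding protein, differed by -0.32 (limma adjusted p = 0.342).

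**Figure D4:**
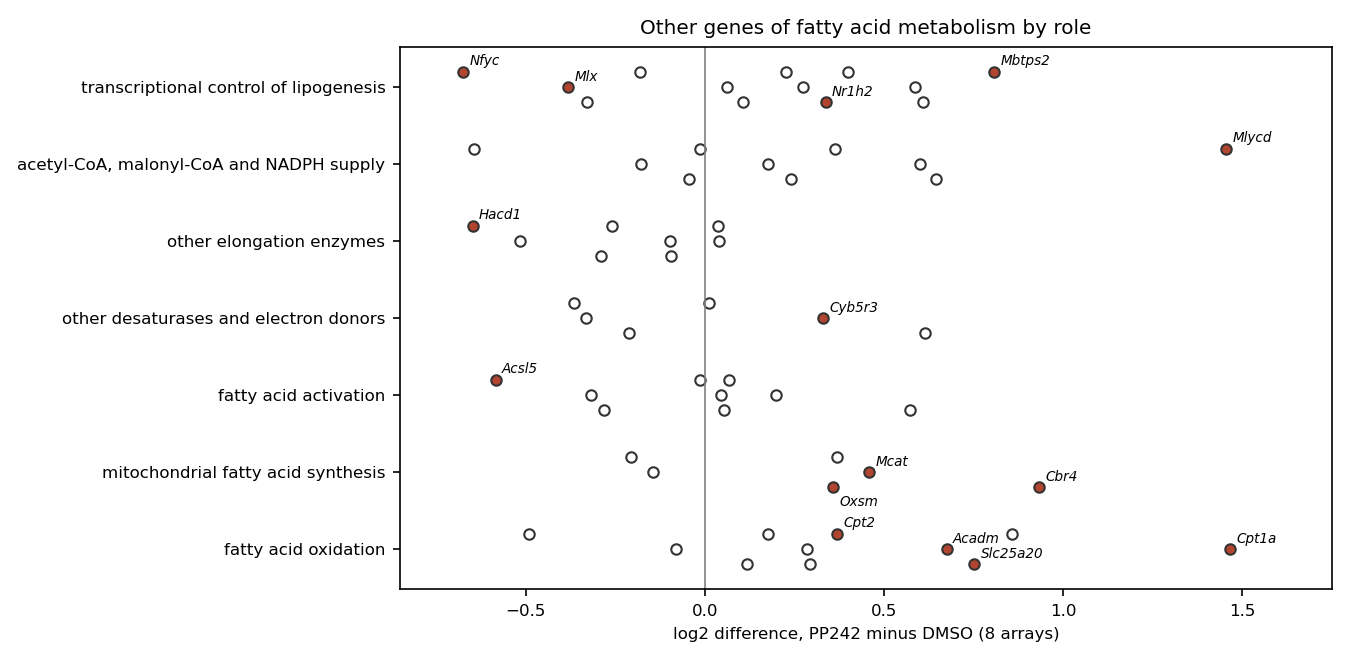
Log2 difference between PP242 and DMSO on 8 arrays (horizontal axis) for the 63 measured genes of the 7 lists (vertical axis). Filled points passed limma's adjusted p of 0.05 and are named; Cpt1a at 1.47 and Mlycd at 1.46 lie farthest to the right, and Nfyc at -0.67 farthest to the left among those that passed.

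Over the 8 arrays the genes whose levels followed Fasn most closely, among 10762 genes with a symbol and well above background on all 8, were Helb, Abl2, Ndufb6, Nap1l2 and Atg4a, with Pearson correlations of 0.979 to 0.959. For Scd1 they were Naip6, 1700003F12Rik, Rassf7, Plin4 and BC048403, with correlations of 0.995 to 0.990. The arrays numbered 4 are among the points, and with 8 arrays in 3 groups these lists are a description.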

How the data were processed

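RNA of 12 NIH3T3 cultures was measured on 1 one-colour (Cy3) Agilent array each, and the titles of the samples gave the groups and replicate numbers. Per the file headers, the processed intensity was background-subtracted and detrended within each array by Agilent Feature Extraction 10.5.1.1, with no scaling between arrays, and the submitters' processing notes name version 10.1. The authors also deposited log2 values of the same arrays, made alike between arrays by a method not given in the sources used here. Those deposited values served as an alternative only, and 0 columns of per-sample values were left unused.

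From the intensities, control spots (1639 of 45018 per array) and spots marked as outliers (1.52% of gene spots) were left out, spots of a probe were averaged, and each array's 75th percentile was subtracted from the log2 values. No gene spot was saturated. Accessions of the array design were matched to symbols of RefSeq: a single symbol was found for 24844 of 41174 probes, several for 0 and none for 16330, which keep their accession. Probes had to be well above background on 2 or more of the 8 fitted arrays, and the brightest probe of a gene was used. The 8 arrays are those whose 75th percentile was over 100 times the 25th. Limma 3.58.1 in R 4.3.3 (lmFit and eBayes, 3 groups in 1 fit, two-sided) was used with Benjamini-Hochberg adjustment over 19669 genes at 0.05, and all adjusted p-values are from it. The number of arrays limits the precision. The script was tested on simulated data. Reading and drawing used Python 3.11.15, pandas 2.3.3, numpy 2.4.6, matplotlib 3.10.9 and version 1.17.8 of the data.table package.

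The members, lists and choice of arrays were made with earlier results of these data known. The named genes are all 10 members, up to 3 passing genes per list in order of adjusted p with the brightest that did not pass, Srebf1, Srebf2, Insig1 and Mid1ip1, and the 5 genes most like Fasn and Scd1. Nr1h2, Cpt2, Fabp4, Lpl, Pparg and Retn were named after their values were seen, and the fit of 6 arrays was added after seeing the data. Promoter letters are RefSeq's (GRCm38.p6), matched by symbol. Alternatives covered scaling, background, filters, probes, blocks, weights and left-out arrays.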

Additional observations from a re-analysis of the deposited data

Results flagged for a closer look

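Of 30 groups of 4 arrays examined (10 genes in 3 groups), 2 held an array that lay far from the other 3. Chance gives about 1 in 20 groups where groups are independent, but these reuse the same 12 arrays. For all 10 genes the array with the widest gap was PP242 4 in the PP242 group and rapamycin 3 in the rapamycin group. Elovl6 had a level of 1.60 on PP242 4, against 2.85 to 3.09 on the other PP242 arrays. Elovl5 had a level of -0.12 on rapamycin 3, against 2.10 to 2.44 on the other rapamycin arrays. Both arrays had raised dim probes, with a 75th percentile 14.3 times the 25th on PP242 4 and 7.05 times on rapamycin 3, and neither was among the 8 fitted arrays. On rapamycin 3 the processed intensity of Elovl5 was 6930, against 6232 to 7121 on the other rapamycin arrays. The 75th percentile subtracted there was 7538, against 1162 to 1594. On PP242 4 the processed intensity of Elovl6 was 5538, against 8534 to 13480 on the other PP242 arrays. The 75th percentile subtracted there was 1832, against 1028 to 1583. The part of the raised signal and of the scaling in these values was not tested.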

How the results depend on the processing

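Acacb kept its rise with PP242 against DMSO past the threshold in 26 of 29 alternatives, and lost it on 12 arrays with slide as a block (2.50, limma adjusted p = 0.112), with a replicate block (2.51, limma adjusted p = 0.0627) and after median centring (1.62, limma adjusted p = 0.787), which moved the median of all genes to -0.75. Other filters, an intensity trend and a fit of only the groups compared kept the Acacb difference at 2.64. So did leaving out a rapamycin array, and these alternatives change only its error. Acacb, the only gene of the 10 called as reported, did not change sign in any alternative. Of 870 recomputed member values, 75 that were not called did. The alternatives read the brightest probe of a gene or the mean of its probes. The second Acacb probe alone, with -0.60 for PP242 against rapamycin, was not among them. The number of the 10 genes past the threshold in PP242 against DMSO, 1 as reported, was 8 on 6 arrays, 6 with array quality weights on 12 arrays, 2 when only the groups compared were fitted and 0 on 12 arrays with slide as a block or median centring. With the replicate block it was 3 on 8 arrays (Acacb, Elovl5 and Elovl6, the last with -0.87, limma adjusted p = 0.0253) and 0 on 12. The numbers were not taken as pairs: deviations of same-numbered arrays correlated above 0.1 in 3 of 4 pairs on 8 arrays (-0.26 to 0.84) and 6 of 12 on 12 (-0.74 to 0.76), and 2 of those 4 involve the PP242 group of 2 arrays, whose deviations mirror each other. Leaving out 1 array at a time gave 1 to 4, with 4 without rapamycin 4 (Acacb, Scd1, Elovl5 and Elovl6). PP242 against rapamycin, 1 as reported, gave 6 on 6 arrays, 3 with weights, 1 to 1 with 1 array left out, and 0 with the mean of a gene's probes and on 12 arrays plain, quantile-normalised, median-centred, from the deposited table, or with a slide or replicate block. Rapamycin against DMSO, 0 as reported, gave 1 on 6 arrays and 3 with weights.

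For the 63 related genes, PP242 against DMSO gave 15 as reported, 34 on 6 arrays and 29 with weights. It gave 8 with median centring, normexp or a replicate block, 9 with the median spot signal, no filter or only the groups compared, and 3 to 18 with 1 array left out, the lowest without PP242 2 (4 without PP242 3, 9 without DMSO 3, rapamycin 1 or rapamycin 2). It gave 0 with slide as a block, 1 with the deposited table of 12 arrays, and 0 on 12 arrays plain, quantile-normalised, median-centred or with either block. PP242 against rapamycin gave 6 as reported, 24 on 6 arrays, 17 with weights, 3 with median centring, no filter or only the groups compared, 2 with the replicate block, 0 with slide as a block, 0 to 9 with 1 array left out (0 without PP242 3), and 0 on 12 arrays otherwise. Rapamycin against DMSO gave 0, with 3 on 6 arrays and 10 with weights. Over all genes, PP242 against DMSO passed for 5135 on 8 arrays, 1412 with slide as a block, 9322 on 6 and 205 on 12. The causes were not tested. PP242 has 2 fitted arrays; with 1 left out, the lone array is assumed to vary like the other groups.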
